A study of Caenorhabditis elegans with 12 samples.

Results

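The 26S proteasome subunit genes of *C. elegans* were taken as all protein-coding genes whose name in the WBcel235 annotation is *pas-*, *pbs-*, *rpt-* or *rpn-* followed by a number. This rule used no measured value and found 33 genes among the 46904 gene identifiers in the count tables, 19901 of which are annotated as protein-coding. The core particle had 14 members and the regulatory particle 19, and all 33 passed the filter on low counts and were tested in every comparison. The genes are spread over chromosomes I (10 genes), II (7), III (8), IV (3) and V (5), with none on X. The study asked which mRNAs depend on the microRNA miR-85 in worms kept at 20°C and in worms exposed to heat shock (HS). RNA sequencing of ribosome-depleted total RNA from whole worms grown to the last larval stage (L4) gave 12 libraries, 3 from independent cultures in each of 4 groups. The groups were *miR-85(n4117)* mutants and N2 wild type (WT) worms, each either given a final 3 hrs at 35°C once they had grown for 44 hrs at 20°C, or kept at 20°C for the whole 47 hrs. The *n4117* allele is carried in every cell, and the RNA came from whole animals, in which fewer cells of a type and less RNA per cell cannot be told apart.

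The 26S proteasome degrades proteins that carry ubiquitin chains. Its core particle is a barrel of stacked rings, with alpha subunits (PAS proteins) that gate the entrance and beta subunits (PBS proteins), some of which cut the peptide chain inside. The regulatory particle caps the barrel. Its base holds a ring of ATPases (RPT proteins) that unfold substrates, together with scaffold subunits and ubiquitin receptors, and its lid holds scaffold subunits and RPN-11, which removes the ubiquitin chain. In worms the subunit genes are known to be raised together by the transcription factor SKN-1A when proteasome activity is impaired.

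The libraries held 23871531 to 38586076 counts, of which 9505142 to 29652439 were on protein-coding genes. WT replicate 3 at 20°C was the shallowest on protein-coding genes with ribosomal RNA at 65.5% of its counts, against 13.7% to 32.9% in the other libraries. A member had between 314 and 12585 counts in a library, and 851 or more when *rpn-6.2* is left aside. As a check of the labels, *hsp-70* (C12C8.1), the inducible HSP70 chaperone, had 4652, 4154 and 5499 CPM (counts per 1 M counts of the TMM-normalised library) in *miR-85(n4117)* at 35°C, against 11.3, 57.1 and 55.7 CPM at 20°C. In WT it had 5399, 4139 and 5938 CPM at 35°C, against 8.06, 3.56 and 2.46 CPM at 20°C. The *mir-85* gene itself had 0 counts in all 6 mutant libraries and 0 to 9 counts in WT libraries, too few for a test. *F49E12.8*, annotated across *mir-85* on the opposite strand, had 0 to 2 counts in *miR-85(n4117)* and 78 to 220 counts in WT at 20°C. At 35°C the summed level of *mir-85* and *F49E12.8* was 0.119 to 0.415 CPM in *miR-85(n4117)* and 3.09 to 3.96 CPM in WT. According to the paper, *F49E12.8* is partly disrupted by the *n4117* allele, so the strains differ at this gene too.

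The members were all expressed in all 12 libraries, and the core genes stood above most of the regulatory genes when levels were set against transcript length. Per kilobase of annotated exon, the highest mean level over the 12 libraries was that of *pas-3*, an alpha subunit gene, with 178 CPM per kb, followed by *pas-5*, another alpha subunit gene, with 174 CPM per kb. The first 9 genes in the order were core genes. The lid gene *rpn-3* came next with 105 CPM per kb. At the other end were *rpn-13*, which encodes a ubiquitin receptor of the base, with 44.8 CPM per kb, and *rpn-6.2*, a paralog of the lid gene *rpn-6.1*, with 17.0 CPM per kb.

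Most neighbours in this order could not be separated. Of the 32 pairs of neighbours, only *rpn-13* and *rpn-6.2* had library ranges that did not overlap, at 35.0 to 50.4 and 15.2 to 19.3 CPM per kb, a 2.63-fold difference of means. *rpn-6.2* had 26.7, 28.3 and 29.2 CPM in *miR-85(n4117)* at 35°C and 23.9, 26.1 and 25.6 CPM at 20°C. In WT it had 29.2, 30.1 and 26.5 CPM at 35°C and 23.8, 23.7 and 24.96 CPM at 20°C. Whether any reads match both *rpn-6.1* and *rpn-6.2*, and how counting treated them, was not tested, so the level of each is uncertain to that extent. *pas-3* had 142, 130 and 154 CPM in *miR-85(n4117)* at 35°C and 138, 157 and 161 CPM at 20°C, and 158, 161 and 158 CPM in WT at 35°C and 152, 177 and 216 CPM at 20°C. The highest of these values was in WT replicate 3 at 20°C, the library rich in ribosomal RNA. Core transcripts span 801 to 1059 exon bases and regulatory ones 855 to 3171, and a part of length itself in the levels per kilobase was not tested.

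**Figure D1:**
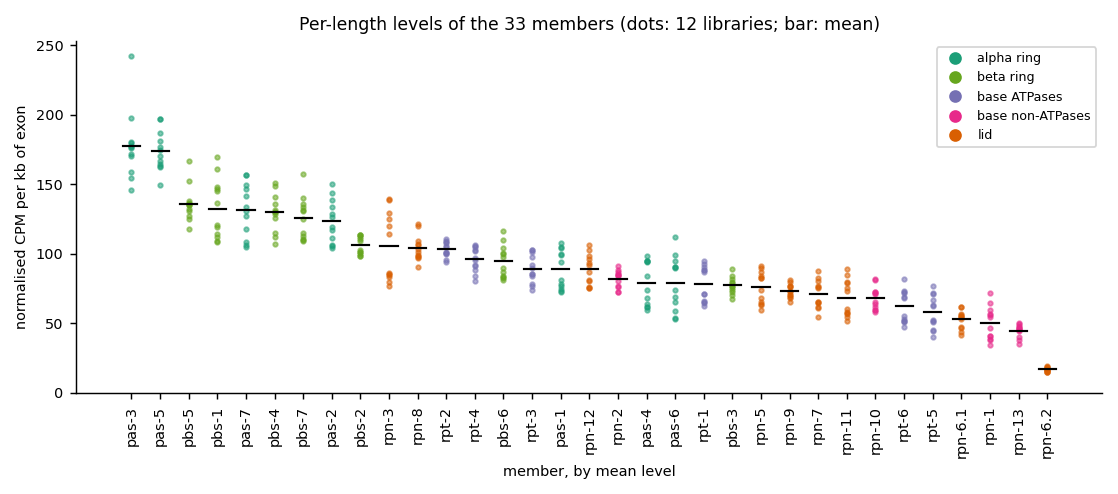
Normalised CPM per kb of annotated exon (y axis, linear from 0) for each of the 33 members (x axis), ordered by mean. Dots are the 12 libraries, bars their mean, and colours the parts of the proteasome. The first 9 members are core genes, and *rpn-6.2* stands below *rpn-13*, 17.0 against 44.8 CPM per kb.

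Upon HS the proteasome genes moved little, and most of the movement was downwards. In WT, 12 of the 33 members fell and 1, *rpn-3*, rose (adjusted p under 0.05, edgeR), while 20 were not called. In *miR-85(n4117)* worms, 10 fell, *rpn-3* rose and 22 were not called. The steepest fall was that of the alpha subunit gene *pas-6* in WT, with a change of −42.0%. *rpn-3* was 1.52-fold higher at 35°C in *miR-85(n4117)* and 1.57-fold higher in WT.

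These counts are to be read against all genes tested. Of 16585 genes tested in WT, 9.29% were called lower and 12.9% higher at 35°C, so the members that fell made up 36.4% of the module and the 1 that rose 3.03%. Of the 3695 genes whose mean CPM lay within the range of the members, 10.5% were called lower and 9.99% higher in WT, and 5.41% lower and 6.47% higher in *miR-85(n4117)*. In *miR-85(n4117)*, 5.88% of the genes tested were called lower and 9.35% higher, against 30.3% and 3.03% of the members. The members' median log2 fold change was −0.25 in each strain, beside 0.051 over all genes tested in *miR-85(n4117)* and 0.043 in WT. No member reached an absolute log2 fold change of 1 in either strain. The study's own limits ask for a protein-coding gene with that change, a mean normalised count over 10 and an adjusted p under 0.05. Of the 15287 protein-coding genes tested, 7.46% passed them in *miR-85(n4117)* and 11.1% in WT.

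The number of falls depended on the fit. Same-numbered WT libraries deviated together, which was taken as a pairing. With the replicate number as a block, 7 members fell in WT and *rpn-3* still rose (adjusted p = 0.0226, edgeR). Leaving out single libraries gave 8 to 13 falls in WT. In *miR-85(n4117)* it gave 1 to 11: 4, 3 and 1 without mutant replicates 1, 2 and 3 at 20°C, 2, 6 and 4 without mutant replicates 1, 2 and 3 at 35°C, 5 without WT replicate 2 at 20°C and 5 without WT replicate 3 at 35°C. The WT pair of replicate 1 was sequenced on lane 3, as were all mutant libraries, and had a median log2 ratio of −0.14 over the members. The WT pairs of replicates 2 and 3, sequenced on lane 8, had −0.33 and −0.32. The replicate number in WT thus also separates the lanes. With lane as a covariate, 12 members fell in WT and 10 in *miR-85(n4117)*.

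Some calls were steadier than others over the 21 alternative settings, which include each library left out in turn. In *miR-85(n4117)* the fall of *pas-4* passed in all 21 and the rise of *rpn-3* in 20. The falls of *rpt-1* and *rpn-11* passed in 18, those of *rpt-5* and *rpt-6* in 16, *rpn-1* in 11, *pas-1*, *pbs-1* and *rpn-5* in 9 and *rpn-12* in 8. In WT the falls of *pas-6*, *rpt-5*, *rpt-6*, *rpn-1* and *rpn-11* and the rise of *rpn-3* passed in all 21. The falls of *pas-1* and *pas-4* passed in 20, *pbs-1* in 17, *rpt-1* in 16, *rpn-7* in 13, *rpn-5* in 11 and *rpn-10* in 6. The highest adjusted p of a called member over these settings was 0.151 in *miR-85(n4117)* (*rpn-12*) and 0.153 in WT (*rpn-10*), both with edgeR, and no called member changed direction.

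**Figure D2:**
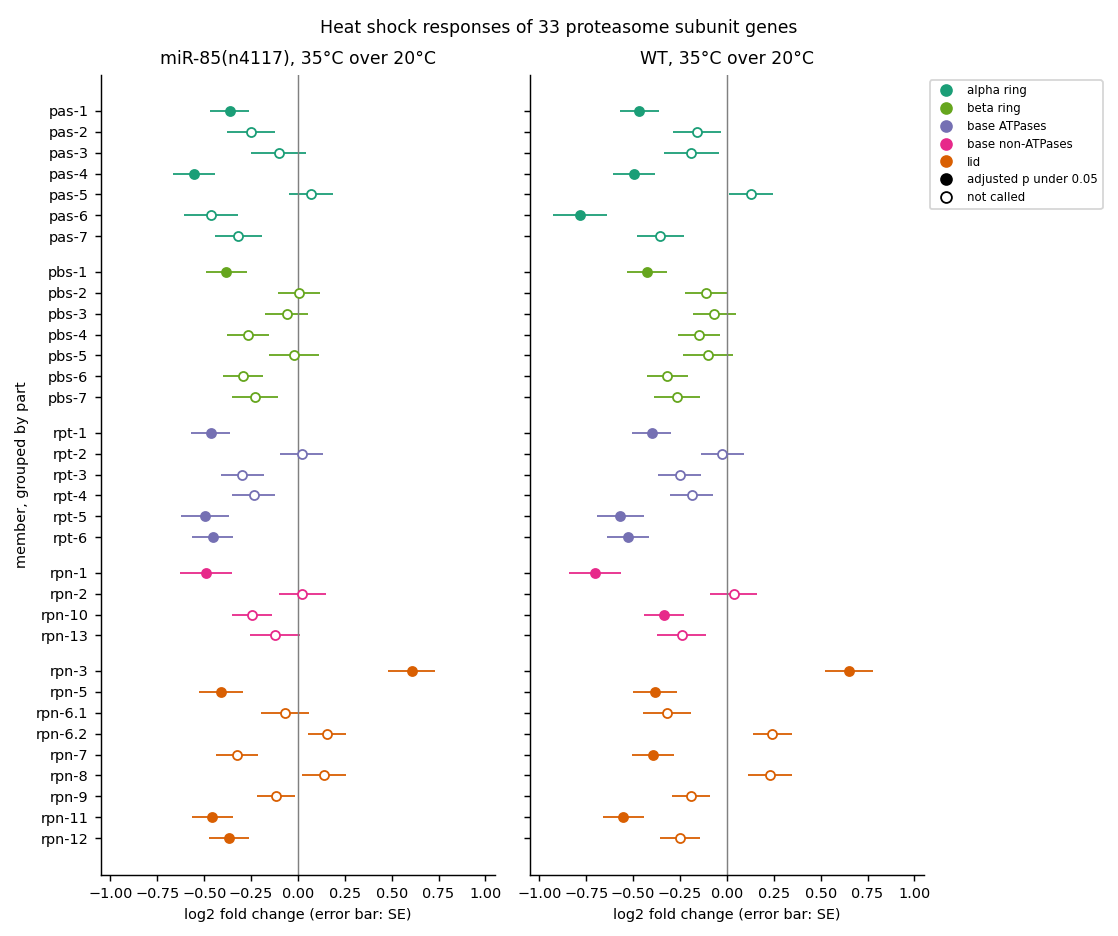
Log2 fold change upon HS, 35°C over 20°C, with its SE (x axes), for the 33 members grouped by part of the proteasome (y axis), in *miR-85(n4117)* and in WT. Filled points have an adjusted p under 0.05 in edgeR. 10 members fell in *miR-85(n4117)* and 12 in WT, and *rpn-3* alone rose in each.

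In the core particle, 3 of 14 genes fell in *miR-85(n4117)* and 4 of 14 in WT, and none rose. An unadjusted p under 0.05 was reached by 7 core genes in *miR-85(n4117)* and by 6 in WT, all with a negative log2 fold change, beside 30.4% and 37.1% of all genes in either direction. The alpha ring held most of these falls. *pas-1*, *pas-4* and *pas-6* fell in WT, where the ring's median log2 fold change was −0.36, and *pas-1* and *pas-4* fell in *miR-85(n4117)*, where it was −0.32.

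*pas-6*, on chromosome V from 5583161 to 5584343, had 68.1, 73.3 and 53.2 CPM in *miR-85(n4117)* at 35°C and 89.8, 89.8 and 89.0 CPM at 20°C. In WT it had 64.6, 52.8 and 58.0 CPM at 35°C and 93.5, 98.1 and 111 CPM at 20°C. All 35°C libraries were below all 20°C libraries of their strain. Its log2 fold change was −0.79 in WT (SE 0.144, adjusted p = 0.00359, edgeR) and −0.47 in *miR-85(n4117)* (SE 0.143, adjusted p = 0.0502), which was not called. *pas-4*, another alpha subunit gene, had 54.9, 56.7 and 52.6 CPM at 35°C and 74.2, 84.0 and 83.2 CPM at 20°C in *miR-85(n4117)*, a change of −32.0% (adjusted p = 0.00693, edgeR). In WT it had 65.4, 60.6 and 54.8 CPM at 35°C and 83.9, 87.1 and 83.7 CPM at 20°C, a change of −29.0% (adjusted p = 0.0105, edgeR). The groups did not overlap in either strain. *pas-1* fell too, with changes of −22.4% in *miR-85(n4117)* and −27.7% in WT.

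*pas-5* was the alpha subunit gene with the highest log2 fold change in WT. It had 143, 139 and 151 CPM at 35°C and 128, 139 and 146 CPM at 20°C in *miR-85(n4117)*, and 168, 169 and 155 CPM at 35°C and 141, 150 and 160 CPM at 20°C in WT. The groups overlapped in both strains, with log2 fold changes of 0.070 (SE 0.116) and 0.13 (SE 0.116) in *miR-85(n4117)* and WT. Among the other alpha subunit genes, *pas-7* was lower in all 35°C libraries than in all 20°C libraries of its strain without being called, at −0.32 in *miR-85(n4117)* and −0.36 in WT (adjusted p = 0.112 and 0.0622, edgeR). *pas-2* and *pas-3* had values between −0.25 and −0.10.

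The beta ring moved less, with a median log2 fold change of −0.23 in *miR-85(n4117)* and −0.15 in WT, and *pbs-1* was its only gene called in either strain. PBS-1 corresponds to the beta subunit with caspase-like activity. *pbs-1*, on chromosome IV from 1708814 to 1709745, had 90.02, 91.9 and 89.2 CPM in *miR-85(n4117)* at 35°C and 122, 112 and 119.3 CPM at 20°C. In WT it had 93.9, 98.2 and 99.6 CPM at 35°C and 120, 132 and 139 CPM at 20°C. The groups were separate in both strains, and the log2 fold change was −0.38 in *miR-85(n4117)* (SE 0.108, adjusted p = 0.0365, edgeR) and −0.43 in WT (SE 0.109, adjusted p = 0.0180, and 0.0527 with the replicate block).

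The genes of the other catalytic beta subunits were not called. *pbs-2*, for the subunit with trypsin-like activity, had log2 fold changes of 0.0057 in *miR-85(n4117)*, where the sign turned in 10 of 21 alternatives, and −0.11 in WT, and *pbs-5*, for the one with chymotrypsin-like activity, had −0.020 and −0.10 (SE 0.111 to 0.134). *pbs-3*, whose product is not catalytic, had the smallest change of the ring in WT. It had 65.3, 61.5 and 57.2 CPM at 35°C and 59.9, 67.9 and 64.1 CPM at 20°C in *miR-85(n4117)*, and 71.1, 62.9 and 66.8 CPM at 35°C and 65.5, 69.2 and 75.7 CPM at 20°C in WT. These groups overlapped in both strains. *pbs-4*, *pbs-6* and *pbs-7* had log2 fold changes of −0.32 to −0.15 over both strains. *pbs-7* shares 70 exon bases on the same strand with *K07A12.5*, so its count is uncertain for reads in that stretch. Another 10 members overlap an exon on the opposite strand, which the stranded counting keeps apart.

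In the regulatory particle, 7 of 19 genes fell and 1 rose in *miR-85(n4117)*, and 8 fell and 1 rose in WT. The ATPases of the base were the part with the lowest median in *miR-85(n4117)*, at −0.38, and had −0.33 in WT. *rpt-1*, *rpt-5* and *rpt-6* fell in both strains, with changes of −27.6%, −29.1% and −27.1% in *miR-85(n4117)* and −24.3%, −32.5% and −30.6% in WT. With the replicate block *rpt-1* was not called in WT (adjusted p = 0.0615, edgeR). *rpt-5*, on chromosome I from 5741868 to 5743571, had 66.5, 77.6 and 59.5 CPM at 35°C and 92.9, 99.8 and 94.5 CPM at 20°C in *miR-85(n4117)* (adjusted p = 0.0235, edgeR). In WT it had 76.0, 78.0 and 67.2 CPM at 35°C and 107, 115.02 and 106 CPM at 20°C (adjusted p = 0.00996, edgeR). Its 35°C libraries lay below its 20°C libraries throughout.

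The other ATPase genes were not called. *rpt-2* had 160, 163 and 147 CPM at 35°C and 159, 155 and 150 CPM at 20°C in *miR-85(n4117)*, and 156, 138 and 148 CPM at 35°C and 161, 148 and 141 CPM at 20°C in WT. Its groups overlapped in both strains, and its log2 fold changes were 0.021 and −0.025 (SE 0.115 in each). The sign turned in *miR-85(n4117)* with no filter, with the protein-coding total as library size and without 1 of 3 single libraries, and in WT without WT replicate 1 at 20°C (0.028) or WT replicate 2 at 35°C (0.017). *rpt-3* had −0.30 in *miR-85(n4117)* and −0.25 in WT, and *rpt-4* −0.24 and −0.19, none of them called. The 35°C libraries of *rpt-3* were all below its 20°C libraries in each strain, and those of *rpt-4* in *miR-85(n4117)*. Differences between the ATPase genes were not tested.

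Of the other base subunits, *rpn-1*, a scaffold that binds ubiquitin and shuttle factors, fell in both strains. The gene, on chromosome IV from 6906420 to 6909913, had 120, 148 and 109 CPM at 35°C and 179, 177 and 172 CPM at 20°C in *miR-85(n4117)*. In WT it had 129, 131 and 122 CPM at 35°C and 229, 204 and 190 CPM at 20°C. The groups were separate in both strains, and the log2 fold change was −0.49 in *miR-85(n4117)* (SE 0.139, adjusted p = 0.0369, edgeR) and −0.70 in WT (SE 0.140, adjusted p = 0.00543, edgeR).

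*rpn-2*, the large scaffold of the same family, did not follow. It had 231, 274 and 244 CPM at 35°C and 266, 240 and 230 CPM at 20°C in *miR-85(n4117)*, and 269, 289 and 269 CPM at 35°C and 281, 271 and 255 CPM at 20°C in WT. These groups overlapped, and the log2 fold changes were 0.023 and 0.035 (SE 0.125 in each). In both strains the sign turned with no filter, with the protein-coding total as library size and when 1 of 3 single libraries in *miR-85(n4117)* or WT replicate 2 at 35°C in WT was left out. The ubiquitin receptor gene *rpn-10* was lower in all 35°C libraries, at −0.24 in *miR-85(n4117)* (adjusted p = 0.150, edgeR) and −0.33 in WT (adjusted p = 0.0458, and 0.0946 with the replicate block). The receptor gene *rpn-13* had −0.12 in *miR-85(n4117)* and −0.24 in WT, with overlapping groups.

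**Figure D3:**
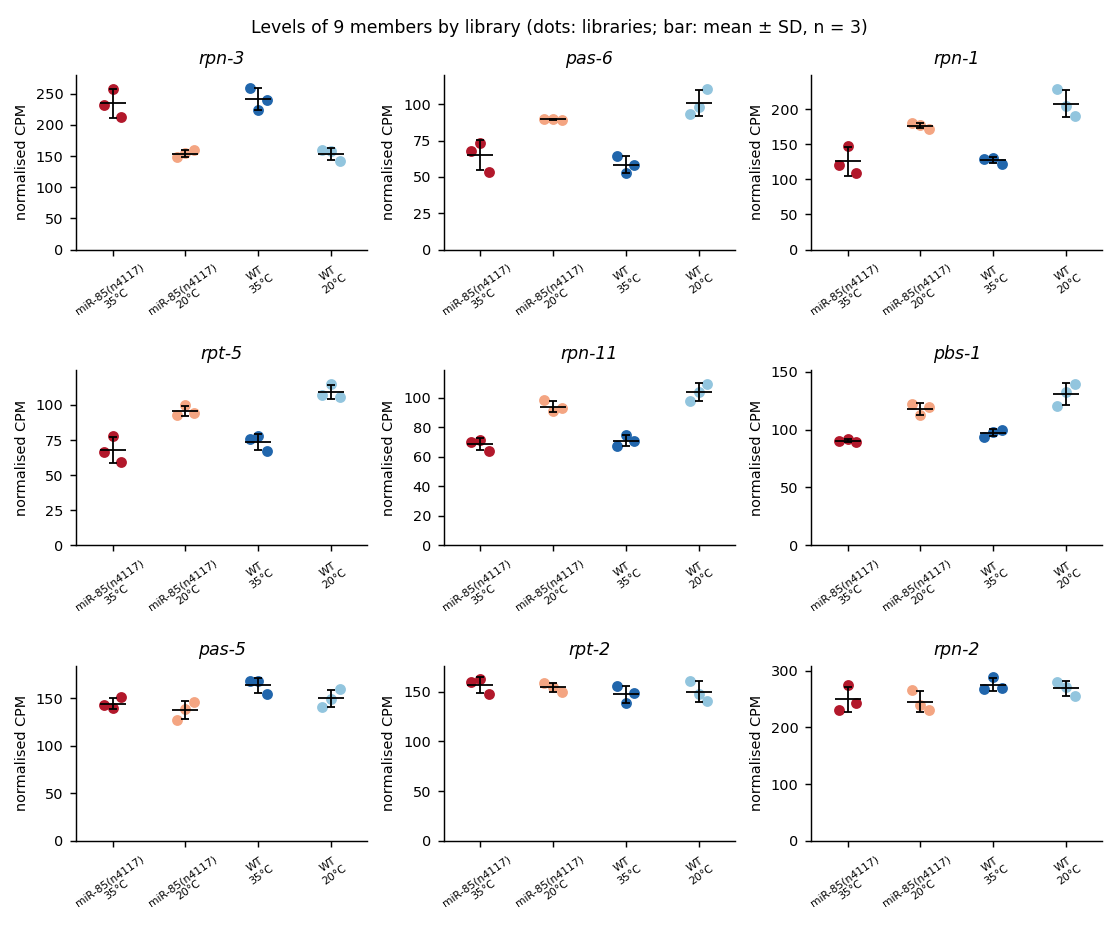
Normalised CPM (y axes, linear from 0) of 9 members in the 4 groups (x axes). Dots are libraries and bars the mean ± SD of 3. The 35°C libraries of *rpn-3* sit above those at 20°C, those of *pas-6*, *rpn-1*, *rpt-5*, *rpn-11* and *pbs-1* sit below, and those of *pas-5*, *rpt-2* and *rpn-2* overlap.

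The lid held both the only rise and some of the clearest falls. *rpn-3*, a scaffold subunit gene on chromosome III from 8447353 to 8449346, had 232, 258 and 212 CPM in *miR-85(n4117)* at 35°C and 148, 155 and 159 CPM at 20°C. In WT it had 259, 223 and 240 CPM at 35°C and 159, 158 and 142 CPM at 20°C. Every 35°C library was above every 20°C library of its strain. The log2 fold change was 0.61 in *miR-85(n4117)* (SE 0.126, adjusted p = 0.00818, edgeR) and 0.65 in WT (SE 0.126, adjusted p = 0.00490, edgeR). With the protein-coding total as library size, an alternative chosen after the data had been seen, it was 0.44 in *miR-85(n4117)*, where the call was lost (adjusted p = 0.0795, edgeR).

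The position of *rpn-3* within the proteasome genes can be given without any scaling between libraries. For every 100 counts on the other 32 members, *rpn-3* had 7.32 ± 0.436 counts at 35°C and 4.14 ± 0.132 at 20°C in *miR-85(n4117)*, and 7.25 ± 0.375 at 35°C and 3.89 ± 0.299 at 20°C in WT (SD, n = 3 each). Of the summed lid level per kilobase it made up 19.9% at 35°C and 12.4% at 20°C in *miR-85(n4117)*, and 20.1% and 12.1% in WT. In each strain the libraries of the temperatures did not overlap in these shares.

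*rpn-11*, the gene of the deubiquitinase and the lid gene with the steepest fall in WT, lies on chromosome II from 4043055 to 4044546. It had 69.97, 71.5 and 64.0 CPM at 35°C and 98.3, 90.9 and 92.9 CPM at 20°C in *miR-85(n4117)*, and 67.5, 74.8 and 70.6 CPM at 35°C and 98.1, 104 and 110 CPM at 20°C in WT. The groups were separate, with changes of −27.2% in *miR-85(n4117)* (log2 fold change −0.46, SE 0.109, adjusted p = 0.0166, edgeR) and −31.8% in WT (−0.55, SE 0.109, adjusted p = 0.00543, edgeR). *rpn-8*, whose product pairs with RPN-11, had log2 fold changes on the other side of 0, at 0.14 in *miR-85(n4117)* and 0.23 in WT (adjusted p = 0.468 and 0.184, edgeR), and that in *miR-85(n4117)* turned to −0.026 with the protein-coding total as library size.

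Of the other lid scaffold genes, *rpn-5* fell in both strains, with changes of −24.7% in *miR-85(n4117)* and −23.4% in WT, where it was not called with the block (adjusted p = 0.0700, edgeR). *rpn-7* was called in WT, with −0.33 in *miR-85(n4117)* (adjusted p = 0.0765, edgeR, not called) and −0.39 in WT (adjusted p = 0.0298, and 0.0739 with the block). *rpn-12* passed in *miR-85(n4117)*, at −0.37 (adjusted p = 0.0412, edgeR), and not in WT, at −0.25 (adjusted p = 0.118, edgeR). *rpn-9* had −0.12 in *miR-85(n4117)* and −0.19 in WT and was not called, and *rpn-6.1* had −0.070 and −0.32. *rpn-6.2*, with the values given above, was higher in all 35°C libraries of each strain without being called, at 0.16 in *miR-85(n4117)*, or −0.011 with the protein-coding total, and 0.24 in WT (adjusted p = 0.338 and 0.113, edgeR). The separate tests in the strains do not show that any of these genes responded differently between them.

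Counted by the libraries alone, 21 members in *miR-85(n4117)* and 20 in WT had all 35°C libraries below all 20°C libraries, and 18 did so in both strains. Of all genes tested, 17.6% did so in *miR-85(n4117)*, 18.3% in WT and 11.4% in both strains. The members that were called lower overlapped between strains in 9 genes, *pas-1*, *pas-4*, *pbs-1*, *rpt-1*, *rpt-5*, *rpt-6*, *rpn-1*, *rpn-5* and *rpn-11*, or 27.3% of the members, beside 4.63% of all genes tested. These were 90% of the falls in *miR-85(n4117)* and 75% of the falls in WT. Of all genes called lower, 78.7% of those in *miR-85(n4117)* and 49.8% of those in WT were called lower in the other strain too. With the replicate block in WT, 6 of the 9 shared falls were still called, without *pbs-1*, *rpt-1* and *rpn-5*.

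The log2 fold changes of the strains had the same sign for 31 of 33 members, with Pearson r = 0.936 and Spearman rho = 0.925 over the 33 genes and Pearson r = 0.906 without *rpn-3*. The strains share no library, but each gene's values in both rest on the same transcript and the same scaling, and genes are not independent replicates.

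**Figure D4:**
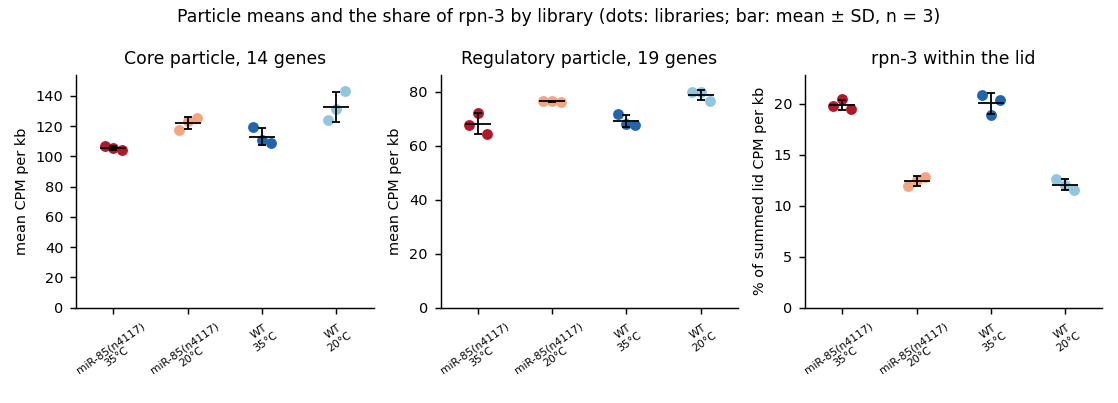
Mean normalised CPM per kb over the 14 core genes (left) and the 19 regulatory genes (middle), and *rpn-3* as a percentage of the summed lid CPM per kb (right), in the 4 groups. Dots are libraries and bars the mean ± SD of 3. Both particles were lower at 35°C, and the share of *rpn-3* was 19.9% and 20.1% at 35°C, against 12.4% and 12.1% at 20°C, in *miR-85(n4117)* and WT.

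Taken by particle, the core averaged 106 CPM per kb at 35°C and 122 at 20°C in *miR-85(n4117)*, and 113 at 35°C and 133 at 20°C in WT. The regulatory particle averaged 68.1 CPM per kb at 35°C and 76.4 at 20°C in *miR-85(n4117)*, and 69.2 at 35°C and 78.8 at 20°C in WT. The 35°C libraries of each particle were below the 20°C libraries of their strain. The lid as a whole, with *rpn-3* in it, averaged 70.4 CPM per kb at 35°C and 74.0 at 20°C in *miR-85(n4117)* and 71.7 and 75.9 in WT, and its libraries at the temperatures overlapped. The median over the lid genes did not overlap, at 59.4 to 68.0 CPM per kb at 35°C and 76.7 to 79.5 at 20°C in *miR-85(n4117)*. In WT this median was 65.1 to 70.7 at 35°C and 81.2 to 85.0 at 20°C. Differences between the parts were not tested. All members together took 0.489% of the protein-coding counts at 35°C and 0.618% at 20°C in *miR-85(n4117)*, and 0.481% and 0.600% in WT.

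At 20°C the strains were compared to see whether loss of miR-85 went with other levels of the proteasome genes. No member was called (edgeR, 0 of 33 also at an unadjusted p under 0.05, and 0 by DESeq2 on both counts), beside 0.0521% of the 15349 genes tested, 9.68% of which had an unadjusted p under 0.05. The members' median log2 fold change, *miR-85(n4117)* over WT, was −0.11, with 24 of 33 below 0 and none beyond 0.26 in size. Of the 15349 genes tested, 7382 were below 0. The SE of single members was 0.103 to 0.171. The smallest p was that of the scaffold gene *rpn-1*, with the 20°C values given above, at −0.24 (SE 0.134, adjusted p = 0.608, edgeR).

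In 9 of 33 members the *miR-85(n4117)* libraries at 20°C were separate from and below those of WT, beside 8.23% of all genes. In none of the 33 were they above, beside 9.19% of all genes. The core genes had a median of −0.13, with 13 of 14 below 0, and the regulatory genes −0.056, with 11 of 19 below 0. Leaving out single libraries gave the members a median of −0.15 to −0.078. The value of −0.078 came without WT replicate 3 at 20°C, the library rich in ribosomal RNA. These small shifts moved with the lane, and with the protein-coding total as library size both the members and all genes moved. The members' median was −0.033 with lane as a covariate. With the protein-coding total it was 0.015, with 14 of 33 members below 0, and the median of all genes went from 0.012 to 0.13.

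At 35°C no member was called between the strains (edgeR, 0 of 33 also at an unadjusted p under 0.05, and 0 by DESeq2 on both counts), beside 0.0190% of the 15803 genes tested, 2.38% of which had an unadjusted p under 0.05. The members' median log2 fold change was −0.054, with 25 of 33 below 0, beside 7474 of the 15803 genes tested. The SE of single members was 0.129 to 0.176. With the protein-coding total as library size the members' median was 0.020, with 14 of 33 below 0. Without WT replicate 1 at 35°C it was −0.0093, and with lane as a covariate −0.11. *rpn-6.1*, whose product is known for joining the lid to the core particle, had the smallest p. It had 90.4, 102 and 77.2 CPM in *miR-85(n4117)* and 78.3, 68.9 and 71.8 CPM in WT, and the groups overlapped, at 0.30 on the log2 scale (SE 0.160, adjusted p = 0.995, edgeR). Same-numbered libraries deviated together in this comparison, which was taken as pairing. With the block 0 members had an unadjusted p under 0.05 (smallest adjusted p = 0.711, edgeR). In 7 members, 5 of them core genes, the mutant libraries were separate from and below those of WT, beside 3.58% of all genes, and in none were they above, beside 3.42%.

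**Figure D5:**
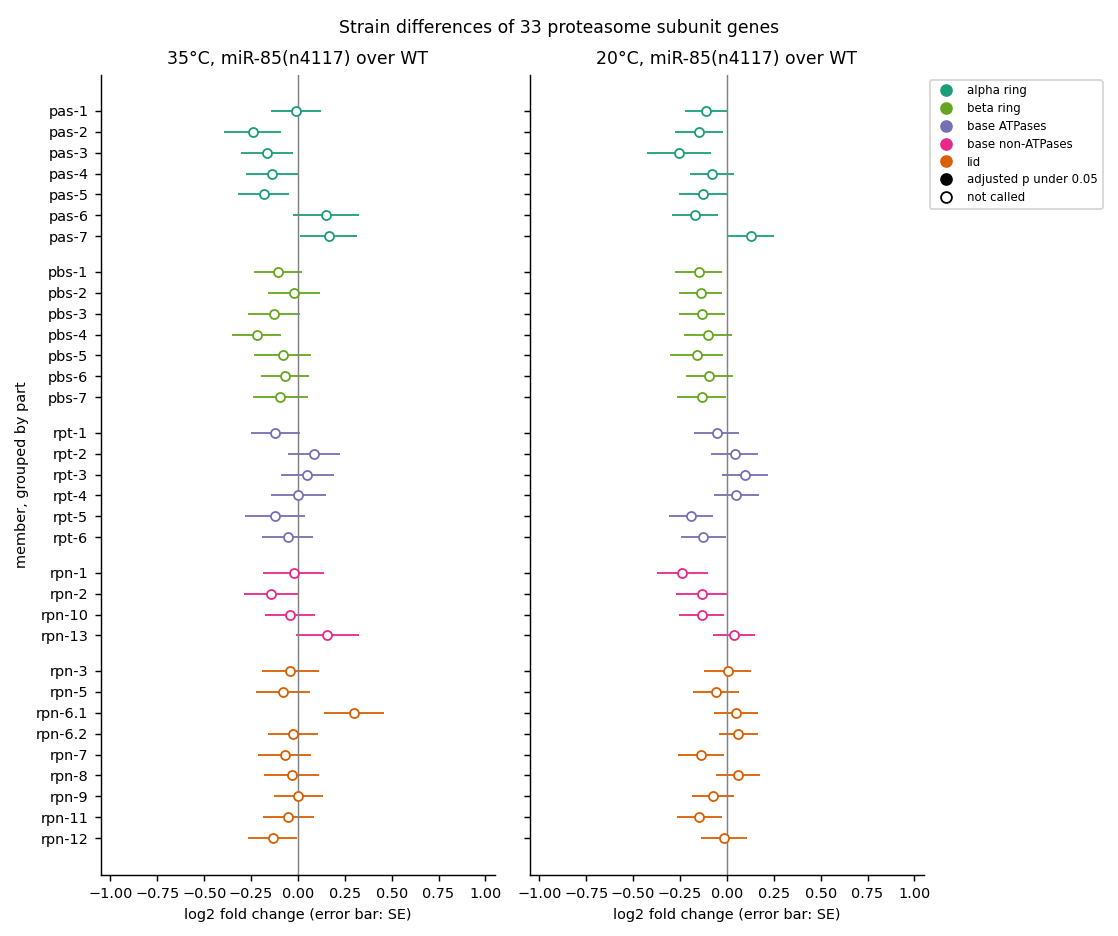
Log2 fold change of *miR-85(n4117)* over WT with its SE (x axes) for the 33 members grouped by part of the proteasome (y axis), at 35°C and at 20°C, on the same scale as the plot of the HS responses. All points are open, as no member had an adjusted p under 0.05 in edgeR, and none lay beyond 0.30.

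The difference of the HS responses between the strains was tested as an interaction, and no member was called (edgeR, 0 of 33 also at an unadjusted p under 0.05, and 0 by DESeq2 on both counts). None of the 16585 genes tested was called either (0%), and 2.27% had an unadjusted p under 0.05. The members' interaction values ranged from −0.12 to 0.32 on the log2 scale with a median of 0.040, and their SE from 0.145 to 0.208. *pas-6*, with the largest fall in WT, had the smallest p, at 0.32 (SE 0.202, adjusted p = 1.00, edgeR).

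Genes that act with the proteasome were described from lists set by function. Of 8 proteasome-associated genes, *aip-1*, which encodes an arsenite-inducible partner of the regulatory particle, rose in both strains. It had 229, 311 and 177 CPM at 35°C and 14.03, 20.1 and 19.2 CPM at 20°C in *miR-85(n4117)*, and 286, 224 and 195 CPM at 35°C and 13.04, 11.05 and 10.7 CPM at 20°C in WT, with log2 fold changes of 3.75 and 4.34. The other 7 were not called in either strain, among them *usp-14*, the gene of a proteasome-bound deubiquitinase, at −0.40 in *miR-85(n4117)* and −0.39 in WT (adjusted p = 0.0793 and 0.0671, edgeR).

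Of the 5 genes of the SKN-1A pathway, *sel-11*, which encodes a ubiquitin ligase of the endoplasmic reticulum, was at −0.53 in *miR-85(n4117)* (adjusted p = 0.0573, edgeR) and fell in WT, at −0.86 (adjusted p = 0.00519, edgeR). *skn-1* itself had 0.32 and 0.19, *ddi-1*, for the protease that cleaves SKN-1A, −0.16 and −0.11, and *png-1*, for its peptide N-glycanase, −0.25 and −0.31, none of them called. Of 3 genes for ubiquitin and its activating enzyme, the polyubiquitin gene *ubq-1* rose in WT, with a log2 fold change of 0.65 (adjusted p = 0.0243, edgeR), and had 0.49 in *miR-85(n4117)* (adjusted p = 0.0867, edgeR).

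Other multi-subunit complexes gave medians above 0. The 8 genes of the CCT chaperonin, which folds actin and tubulin, had a median log2 fold change upon HS of 0.25 in *miR-85(n4117)* and 0.29 in WT, and *cct-5* rose in both strains, by 0.57 and 0.51 on the log2 scale. The 81 cytosolic ribosomal protein genes had 0.29 in *miR-85(n4117)* and 0.15 in WT. Of these, 1 gene, *rpl-11.1*, was called higher in each strain and none lower. Their summed CPM in WT at 20°C was 86746, 99716 and 145281, the last in replicate 3, the library rich in ribosomal RNA. That value lay above the WT range at 35°C, 106686 to 133622. All 35°C libraries lay above all 20°C libraries for 64 of the 81 genes in *miR-85(n4117)* and for 2 in WT. The WT median of this set is uncertain to that extent. The proteasome members had a median of −0.25 in each strain.

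Markers of some tissues also moved with temperature. Of all genes tested, 5.88% were called lower and 9.35% higher in *miR-85(n4117)*, and 9.29% and 12.9% in WT. Of 5 intestinal markers, *vha-6* and *act-5* fell in *miR-85(n4117)*, and *vha-6*, *act-5* and *ges-1* fell and *ifb-2* rose in WT. *vha-6*, a subunit of the intestinal proton pump, had a log2 fold change of −1.08 in *miR-85(n4117)* and −1.30 in WT. Of 5 neuronal markers, *unc-119*, *rab-3* and *ric-4* fell in *miR-85(n4117)* and *rab-3* fell in WT, with *rab-3*, of synaptic vesicles, at −0.91 and −0.77. Of these 5 markers, 1 was above 0 in *miR-85(n4117)* and 2 in WT. Their summed CPM was 100 at 35°C and 110 at 20°C in *miR-85(n4117)*, and 86.2 and 91.0 in WT. Of 4 hypodermal markers, the collagen gene *bli-1* fell in WT, where all 4 were below 0. In *miR-85(n4117)* none of the 4 was called, with 2 above and 2 below 0. Of 5 sperm markers, *spe-11* rose in both strains, while 1 was below 0 in *miR-85(n4117)* and 2 in WT. The summed CPM of the sperm markers was 152 at 35°C and 144 at 20°C in *miR-85(n4117)*, and 167 and 173 in WT. No marker of germ cells, oocytes, pharynx or body wall muscle was called in either strain. The adult yolk and cuticle markers had medians of 2.60 in *miR-85(n4117)* and 2.87 in WT with no gene called. Their summed CPM varied widely within groups, at 348 to 5536 at 35°C and 85.6 to 1031 at 20°C in *miR-85(n4117)*, and 2454 to 8679 at 35°C and 811 to 983 at 20°C in WT. The part of tissue composition or developmental stage in the changes of the proteasome genes was not tested.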

How the data were processed

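Total RNA was depleted of ribosomal RNA by the authors, made into stranded libraries, aligned with STAR and counted on genes with featureCounts 1.6.5, strand setting 2. The deposited tables hold whole-number counts of reads on each gene, not normalized, and the table headers name Ensembl release 100. Names, WBcel235 positions and exon lengths came from Ensembl release 115, which held 46817 of 46904 identifiers. In R 4.3.3, edgeR 4.0.16 was run with filterByExpr, TMM and robust quasi-likelihood tests, with Benjamini-Hochberg adjustment over all genes tested. HS responses and the interaction came from 12 libraries, and strain comparisons from 6. The SE was computed as log2 fold change over the root of the F statistic, without sign. CPM used TMM library sizes. Total counts were 23871531 to 38586076 per library.

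The members and gene lists were chosen with earlier results of these data known. Per-library values were given for the members with the highest and lowest log2 fold change upon HS in WT in each part. They were also given for the smallest p in each strain comparison and the interaction, and for the highest and lowest level per length. Those of *hsp-70* were given as a check of the labels. Those of *pas-4* and *aip-1* were added, and *rpl-11.1* was named, after their values were seen. Alternatives were DESeq2 1.42.0, RLE, other filters, protein-coding genes only, other libraries, lane, replicate block and leaving out each library, and, after seeing the data, the protein-coding total as library size. Same-numbered libraries deviated together in WT (r = 0.31, 0.12 and 0.36) and between strains at 35°C (r = 0.49, 0.56 and 0.34), which was taken as pairing. Each test was run on simulated counts with planted changes larger than that of any member. This does not show how well changes of the members' size are found. No promoter or protein sequences were used here.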

Additional observations from a re-analysis of the deposited data

How the results depend on the processing

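Under 21 alternatives for each HS comparison, 24 members in *miR-85(n4117)* and 26 in WT always kept a negative log2 fold change, 1 and 4 a positive one, and 8 and 3 changed sign. The count of falling members in *miR-85(n4117)* was 17 with DESeq2, 6 with no filter, 5 with at least 10 counts in every library, 4 with the 6 libraries of the strain, 2 with the replicate block and 16 with the protein-coding total as library size, where the count of rising members was 0. In WT it was 15 with DESeq2, 7 with no filter, 5 with the 6 libraries of the strain and 7 with the replicate block. With the protein-coding total as library size it was 14 in WT. The members' median in *miR-85(n4117)* and WT was −0.33 and −0.30 with no filter and −0.42 and −0.37 with the protein-coding total, which moved the median of all genes to −0.14 and −0.11. That total also gave the members strain medians of 0.020 at 35°C and 0.015 at 20°C and an interaction median of −0.016. The medians of all genes were then 0.091, 0.13 and −0.031. Lane as a covariate gave the members strain medians of −0.11 at 35°C and −0.033 at 20°C.

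With no filter and with the protein-coding total, the sign turned for *pas-5* (−0.0046 and −0.097), *rpt-2* (−0.054 and −0.14) and *rpn-2* (−0.052 and −0.14) in *miR-85(n4117)* and for *rpn-2* in WT (−0.018 and −0.085). In *miR-85(n4117)*, *pbs-2* also turned in 10 of 21 alternatives (lowest −0.16), and *rpn-8* (−0.026) and *rpn-6.2* (−0.011) with the protein-coding total. Single libraries left out turned *pbs-5* in *miR-85(n4117)* (up to 0.040) and WT (0.00093) and *rpn-6.1* in *miR-85(n4117)* (0.023). With single libraries left out, *rpt-2* lay between −0.013 and 0.060 in *miR-85(n4117)* and between −0.084 and 0.028 in WT, and *rpn-2* between −0.051 and 0.082 and between −0.0011 and 0.066. The medians then lay between −0.29 and −0.24 in *miR-85(n4117)* and −0.33 and −0.23 in WT, between −0.074 and −0.0093 for the strains at 35°C and −0.15 and −0.078 at 20°C, and between −0.025 and 0.075 for the interaction. The falls numbered 1 to 11 in *miR-85(n4117)* and 8 to 13 in WT. Replicate numbers did not pair the libraries for HS in *miR-85(n4117)* (r = −0.20, −0.34 and 0.41) or for the strains at 20°C, where the block also gave 0 calls. With the block in WT, *pbs-1*, *rpt-1*, *rpn-5*, *rpn-7* and *rpn-10* were no longer called, and it changed no other call of a member in WT or between the strains. The causes of these changes were not tested.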
